A study of Homo sapiens with 16 samples.

Results

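The integrated stress response transcription factors are 10 genes that were taken by symbol from a table of 25369, namely *ATF4*, *ATF3*, *ATF5*, *DDIT3*, *CEBPB*, *CEBPG*, *CEBPD*, *TRIB3*, *NUPR1* and *BATF3*. Their mRNA was followed in 16 libraries of stranded poly(A)-enriched RNA from the papillary thyroid carcinoma lines TPC1 and K1. Cells of each line received 0.2% DMSO as the vehicle, 10 µM nutlin-3a (nutlin), 25 µM GSK2830371 or both drugs for 24 h, with 2 libraries for each of the 8 groups. Nutlin blocks the p53 repressor MDM2, GSK2830371 inhibits the phosphatase PPM1D, and both lines carry wild type p53. TPC1 was grown in RPMI and K1 in DMEM, so a difference between the lines cannot be told apart from one between the media. According to the study, its replicates in general were independent biological ones, whereas the labels of these libraries give only a number.

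In the integrated stress response, kinases that sense heme shortage, misfolded protein, amino acid shortage or viral RNA phosphorylate the translation factor eIF2alpha. Most protein synthesis then slows, whereas *ATF4* mRNA is translated more, and the ATF4 protein switches on genes for amino acid supply, redox balance and, if stress lasts, cell death. ATF4 binds DNA as a dimer with other basic leucine zipper (bZIP) proteins, among them the C/EBP family. Several of its targets encode further factors such as ATF3, CHOP (the product of *DDIT3*) and TRIB3. The counts measure mRNA only, so the translational step on ATF4 is outside them.

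TPC1 libraries held 30789887 to 76648552 counts and K1 libraries 28888686 to 37161241. The TPC1 columns carry the numbers 1 and 3, and the libraries are named by these numbers below. Levels are given in CPM, read counts scaled to the depth of each library with TMM factors over the 16 libraries, and a ± after CPM is the standard deviation of 2 libraries. After a log2 fold change it is the standard error. A gene counts as raised or lowered if it passed both an adjusted p of 0.05 (quasi-likelihood F tests in edgeR, Benjamini-Hochberg over all genes) and a 1.5-fold change. All 10 genes passed the filter on low counts in both lines. The p53 targets *CDKN1A* and *MDM2* checked the nutlin label. In TPC1, nutlin took *CDKN1A* from 138 ± 19.1 to 6908 ± 126 CPM and *MDM2* from 132 ± 9.99 to 4208 ± 6.27 CPM. In K1 the means were 113 ± 5.03 and 1011 ± 62.1 CPM for *CDKN1A*, and 154 ± 1.02 and 1273 ± 36.5 CPM for *MDM2*. Of 7 thyroid follicular markers, *NKX2-1*, *TSHR* and *SLC5A5* stayed under 1 CPM in every library of both lines, although the list summed to between 326 and 499 CPM in the TPC1 libraries and to between 774 and 877 CPM in those of K1. Of 5 epithelial markers, *KRT19*, *EPCAM* and *CDH1* were also under 1 CPM throughout. With *KRT8* and *KRT18*, which were not, that list summed to between 429 and 923 CPM in TPC1 and between 886 and 1290.1 CPM in K1.

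When PPM1D was inhibited on top of nutlin, 7 of the 10 genes rose in TPC1 and 6 in K1, and the others did not pass the test. Among all genes tested the share called upregulated in that comparison was 6.46% in TPC1 and 1.16% in K1. *ATF4*, *ATF3*, *DDIT3*, *CEBPG*, *TRIB3* and *NUPR1* rose in each line, and *CEBPB* was the seventh gene in TPC1. Over the 10 genes the median change on the log2 scale was 1.11 for TPC1 and 0.79 for K1, while that of all genes tested was 0.01 and 0.00. Sizes differed between the lines for most of them, as the plot of levels in each library shows, and *DDIT3* differed most.

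**Figure D1:**
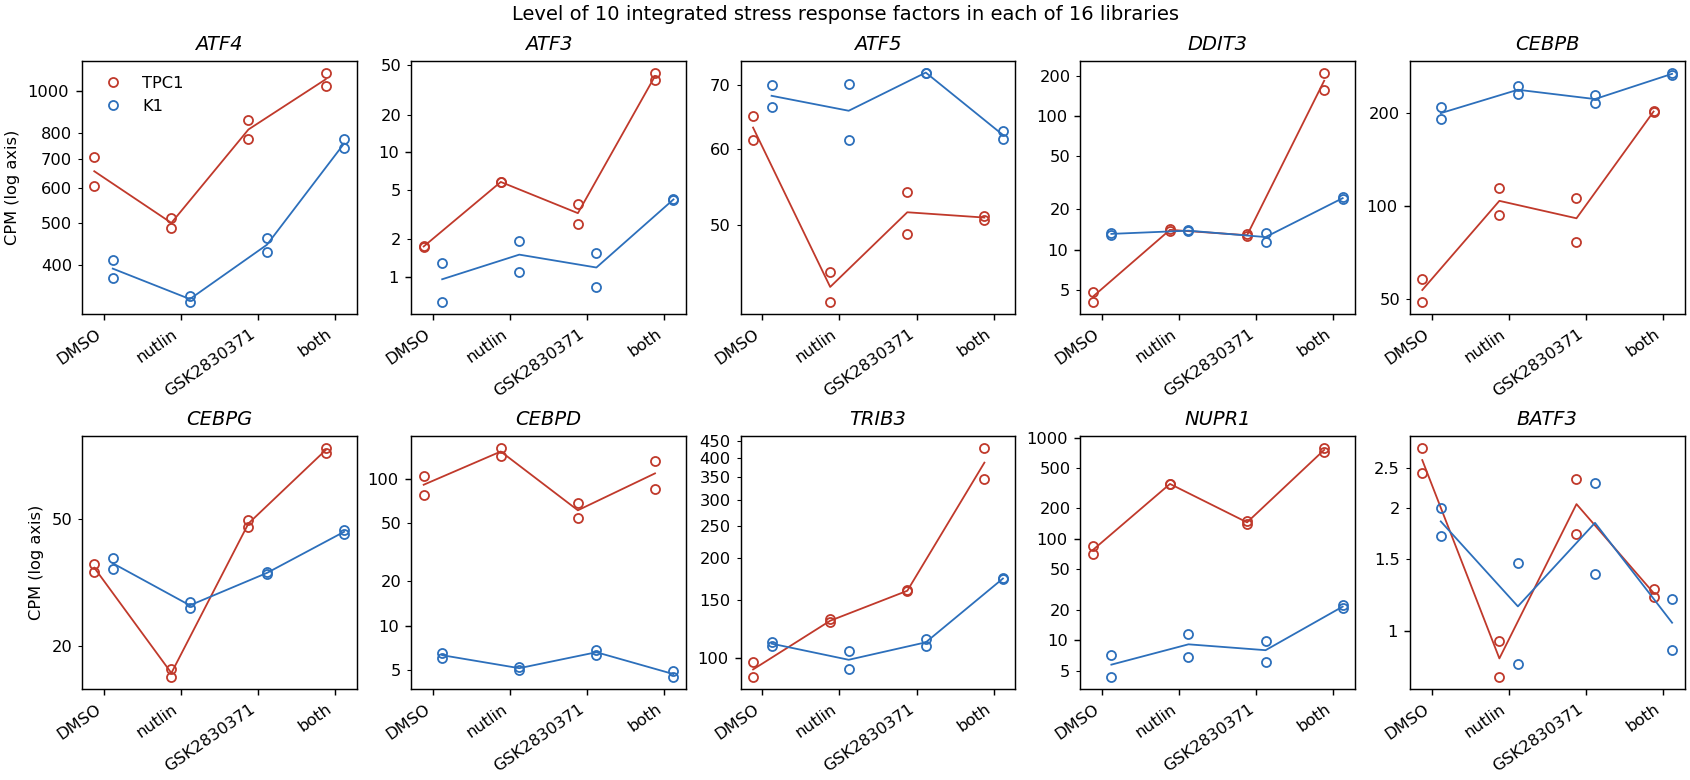
CPM of each of the 10 genes (log axis) in the 4 treatments, with 1 circle per library, red for TPC1 and blue for K1, and lines joining the means of 2 libraries. *DDIT3* stood at 157 and 213 CPM under both drugs in TPC1 and at 23.9 and 24.7 CPM in K1, whereas *ATF4* under both drugs exceeded every other library of its own line.

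*ATF4* (chromosome 22, 39915700 to 39918688 in GRCh37) encodes the main effector of the response. In TPC1 it was read at 606 and 704 CPM under DMSO, 486 and 513 CPM under nutlin, 774 and 857 CPM under GSK2830371, and 1022 and 1099 CPM under both drugs. In K1 the same treatments gave 411 and 375 CPM, 329.5 and 340.5 CPM, 429 and 462 CPM, and 741 and 774 CPM. Both lines held the order nutlin, DMSO, GSK2830371, both drugs, and no neighbouring groups in that order overlapped. The fall under nutlin alone passed the adjusted p but stayed under the fold threshold, with log2 fold changes of −0.42 ± 0.09 in TPC1 (edgeR adjusted p = 0.0029) and −0.23 ± 0.06 in K1 (edgeR adjusted p = 0.01). GSK2830371 alone gave 0.32 ± 0.09 in TPC1 (edgeR adjusted p = 0.087) and 0.18 ± 0.06 in K1 (edgeR adjusted p = 0.048), again under that threshold.

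With both drugs, *ATF4* rose over DMSO by 0.67 ± 0.09 in TPC1 (edgeR adjusted p = 0.00014) and 0.95 ± 0.06 in K1 (edgeR adjusted p = 2.7e-08). The TPC1 change lay close to the fold threshold and fell to 0.58 without DMSO library 1, which ended the call. Measured from nutlin, the rise was 1.09 ± 0.09 in TPC1 and 1.18 ± 0.06 in K1 (edgeR adjusted p = 8.6e-05 and 3e-07), or 2.13-fold and 2.26-fold. The difference of these responses, K1 minus TPC1, was 0.09 ± 0.12, with a 95% interval from −0.17 to 0.35 (edgeR adjusted p = 0.74). Untreated K1 cells held less *ATF4* mRNA than untreated TPC1 cells, with a log2 difference of −0.74 ± 0.09 (edgeR adjusted p = 1.2e-06).

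ATF4 and C/EBP proteins bind together at a composite element, searched here as TGATGNAA on either strand in the 1000 bases before each gene's canonical start. It was found in 11.4% of 19852 genes and in 3 of the 10 members, which were *ATF3*, with 2 matches, *DDIT3* and *NUPR1*. Of 47 other ATF4 targets with a start in the annotation, 18 held it. The stretches are shown because these are the members whose upstream bases carry the letters of the factor under study. The first lies on the plus strand at chr1:212781889-212781918 with the match 203 bases before the *ATF3* start, the next on the plus strand at chr1:212782071-212782100 with the match 21 bases before it. That of *DDIT3* is on the minus strand at chr12:57914585-57914614, 306 bases before the start, and that of *NUPR1* on the minus strand at chr16:28550368-28550397, 91 bases before it. All coordinates are GRCh37, each stretch is 30 bases written 5′ to 3′ on the gene's strand, and capitals mark the match or its reverse complement.
ATF3 distal match: cctccccgaacTTGCATCAccagtgccccc
ATF3 proximal match: tataaaaggggTGATGCAAcgctctccaag
DDIT3 match: gttgccaaacaTTGCATCAtccccgccccc
NUPR1 match: aaggggccagaTTGCATCAgacagggcctg
In the other 7 members these letters are not in this window, which says nothing of elements elsewhere. A cAMP response element, TGACGTCA, was in 3.35% of genes and in no member's window. An AP-1 site, TGANTCA, was in 20.3% of genes and in the windows of *ATF4*, *ATF5*, *DDIT3* and *CEBPB*. None of the matches printed overlaps these, and both motifs were searched on either strand.

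*DDIT3* (chromosome 12, 57910371 to 57915520) encodes CHOP, a C/EBP family protein that pairs with ATF4 and other C/EBP factors and is known for its part in stress-induced death. In TPC1 it stood at 4.02 and 4.83 CPM under DMSO, 13.8 and 14.3 CPM under nutlin, 13 and 12.6 CPM under GSK2830371, and 213 and 157 CPM under both drugs. Each drug alone therefore brought it to a like level above DMSO, and the libraries with both drugs stood far above all others. In K1 the values were 13.3 and 12.9 CPM, 13.7 and 14.0 CPM, 11.4 and 13.4 CPM, and 24.7 and 23.9 CPM in the same order. In that line the untreated cells already held about the level of TPC1 cells under 1 drug, and the groups other than the combination lay between 11.4 and 14.0 CPM.

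The log2 fold change of *DDIT3* over DMSO in TPC1 was 1.62 ± 0.16 with nutlin, 1.52 ± 0.16 with GSK2830371 and 5.35 ± 0.17 with both drugs (edgeR adjusted p = 2.6e-05, 0.0038 and 1.3e-08). The last is a 40.7-fold rise. In K1 it was 0.08 ± 0.09 with nutlin, −0.08 ± 0.09 with GSK2830371 and 0.89 ± 0.09 with both drugs (edgeR adjusted p = 0.57, 0.59 and 1.7e-06). From nutlin to both drugs *DDIT3* rose 13.2-fold in TPC1 and 1.76-fold in K1, by 3.72 ± 0.15 and 0.81 ± 0.09 on the log2 scale. K1 minus TPC1, this response differed by −2.90 ± 0.18 (edgeR adjusted p = 1.2e-07). The gene also differed between the untreated lines, being higher in K1 by 1.55 ± 0.14 (edgeR adjusted p = 4.5e-08). *DDIT3* thus rose in both lines under the combination, and what was particular to TPC1 in the tests was the rise with each drug alone and the size of the rise with both.

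*ATF3* (chromosome 1, 212738676 to 212794119) encodes a bZIP factor induced by ATF4 and by p53. In TPC1 it was read at 1.74 and 1.75 CPM under DMSO, 5.77 CPM in each nutlin library, 2.66 and 3.81 CPM under GSK2830371, and 38.2 and 43.8 CPM under both drugs. In K1 it was low throughout, with 0.621 and 1.28 CPM under DMSO, 1.92 and 1.08 CPM under nutlin, 1.54 and 0.823 CPM under GSK2830371, and 4.23 and 4.12 CPM under both drugs. The K1 libraries with both drugs stood above the other 6, among which the treatments overlapped. Its counts in K1 ran from only 22 to 138.

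With both drugs *ATF3* rose over DMSO by 4.53 ± 0.16 in TPC1 and by 2.12 ± 0.30 in K1 (edgeR adjusted p = 2.2e-08 and 7.4e-05). Over nutlin it rose by 2.84 ± 0.14 in TPC1 and 1.49 ± 0.29 in K1 (edgeR adjusted p = 6.1e-06 and 0.005), and the K1 call was lost without nutlin library 2, where the change was 1.12. K1 minus TPC1, the response to both drugs over DMSO differed by −2.43 ± 0.40 (edgeR adjusted p = 0.00015). The difference measured from nutlin, −1.34 ± 0.36 (edgeR adjusted p = 0.028), lost its call when any of 6 libraries was left out, and was −0.88 without K1 nutlin library 1. Nutlin alone raised *ATF3* in TPC1 by 1.69 ± 0.16 (edgeR adjusted p = 2.4e-05). GSK2830371 alone raised it there by 0.93 ± 0.17 (edgeR adjusted p = 0.027), a call that ended without DMSO library 1 or 3, nutlin library 1 or 3, or GSK2830371 library 3, with the smallest value, 0.63, in the last case, and with the compared groups alone at 0.92. In K1 neither drug alone passed the test.

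*TRIB3* (chromosome 20, 343479 to 378203) encodes a pseudokinase that is induced by ATF4 and CHOP and holds ATF4 back, so it is a feedback gene. In TPC1 it stood at 87.5 and 97.3 CPM under DMSO, 128 and 131 CPM under nutlin, 159 and 159.8 CPM under GSK2830371, and 429.8 and 345 CPM under both drugs. In K1 the same order gave 109 and 112 CPM, 105 and 92.6 CPM, 114 and 109 CPM, and 174 and 173 CPM. All TPC1 groups were separate, whereas in K1 the libraries with both drugs alone stood above the rest.

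From nutlin to both drugs *TRIB3* rose by 1.59 ± 0.11 in TPC1 and 0.81 ± 0.06 in K1 (edgeR adjusted p = 3.4e-05 and 7e-06). The difference, K1 minus TPC1, was −0.76 ± 0.13 (edgeR adjusted p = 0.0017). Over DMSO the combination raised it by 2.04 ± 0.11 in TPC1 and 0.66 ± 0.06 in K1 (edgeR adjusted p = 3.6e-07 and 1.3e-06). GSK2830371 alone raised it by 0.79 ± 0.11 in TPC1 (edgeR adjusted p = 0.011), a call lost without either GSK2830371 library at 0.77 and 0.80.

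*NUPR1* (chromosome 16, 28544029 to 28550329) encodes a small chromatin-associated stress protein that is also an ATF4 target. Like *CEBPD*, it was far lower in K1 than in TPC1, by −3.76 ± 0.23 on the log2 scale in untreated cells (edgeR adjusted p = 2.8e-10). TPC1 held 70.2 and 84.9 CPM under DMSO, 346 and 350.3 CPM under nutlin, 141 and 149.5 CPM under GSK2830371, and 794 and 715 CPM under both drugs. K1 held 4.29 and 7.15 CPM, 11.4 and 6.76 CPM, 9.83 and 6.06 CPM, and 20.7 and 22.1 CPM. The TPC1 treatments were separate at every step, while in K1 the libraries with both drugs exceeded the other 6, which overlapped.

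Nutlin alone raised *NUPR1* 4.38-fold in TPC1, by 2.13 ± 0.10 (edgeR adjusted p = 2e-07), and the combination raised it 9.56-fold over DMSO, by 3.26 ± 0.10 (edgeR adjusted p = 1.2e-08). GSK2830371 alone raised it by 0.91 ± 0.10 (edgeR adjusted p = 0.0038), a call lost without GSK2830371 library 3 at 0.89. In K1 the combination raised it by 1.90 ± 0.24 over DMSO (edgeR adjusted p = 2.5e-05) and by 1.24 ± 0.23 over nutlin (edgeR adjusted p = 0.0039), the latter lost without nutlin library 2 at 0.91. The rise from nutlin to both drugs was 1.12 ± 0.09 in TPC1 (edgeR adjusted p = 9.9e-05), and the lines differed in it by 0.13 ± 0.29 with a 95% interval from −0.48 to 0.74 (edgeR adjusted p = 0.87). *ATF4* and *NUPR1* were therefore the upregulated genes for which a difference between the lines in this step was not detected, and the interval of *NUPR1* is wide. In K1, replicates of *ATF3* and *NUPR1* parted in the same libraries. DMSO library 2 exceeded library 1 by 2.06 times for *ATF3* and 1.67 times for *NUPR1*, and library 1 exceeded library 2 by 1.78 and 1.69 times under nutlin and by 1.87 and 1.62 times under GSK2830371.

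The C/EBP genes encode dimer partners of ATF4 and CHOP, and each followed the drugs in its own way. *CEBPG* (chromosome 19, 33864591 to 33873592), whose product pairs with ATF4 on amino acid response genes, was read in TPC1 at 34.3 and 36.3 CPM under DMSO, 16 and 17 CPM under nutlin, 49.7 and 47.5 CPM under GSK2830371, and 81.0 and 84.0 CPM under both drugs. In K1 it was 35 and 37.9 CPM, 27.5 and 26.3 CPM, 34.2 and 33.8 CPM, and 46.4 and 45.1 CPM. In each line the nutlin libraries lay below those with DMSO and the libraries with both drugs above them, with no overlap. On the log2 scale nutlin moved it by −1.13 ± 0.08 in TPC1 and −0.44 ± 0.07 in K1 (edgeR adjusted p = 3.5e-06 and 0.00024), the latter under the fold threshold. From nutlin to both drugs it rose by 2.33 ± 0.08 in TPC1 and 0.77 ± 0.07 in K1 (edgeR adjusted p = 1.2e-06 and 3e-05), with a difference of −1.55 ± 0.11 (edgeR adjusted p = 3.3e-07).

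*CEBPB* (chromosome 20, 48807367 to 48809205), a C/EBP factor of inflammatory and stress signals, held 49.0 and 58.3 CPM under DMSO in TPC1, 93.8 and 114 CPM under nutlin, 76.6 and 106 CPM under GSK2830371, and 202 and 201 CPM under both drugs. K1 started from 208 and 190.2 CPM and reached 264 and 269 CPM under both drugs. Untreated K1 therefore held about the level that TPC1 had under both drugs, and its log2 difference from untreated TPC1 was 1.89 ± 0.13 (edgeR adjusted p = 1.4e-09). In TPC1 *CEBPB* rose by 1.88 ± 0.15 under both drugs over DMSO and by 0.96 ± 0.15 over nutlin (edgeR adjusted p = 4.6e-06 and 0.0018). In K1 its rise over DMSO, 0.42 ± 0.06, passed the adjusted p (6e-05 by edgeR) but not the fold threshold. K1 minus TPC1, the response from nutlin differed by −0.78 ± 0.18 (edgeR adjusted p = 0.011), a call that ended without TPC1 nutlin library 1 at −0.65 or K1 nutlin library 1 at −0.74. GSK2830371 alone raised it in TPC1 by 0.77 ± 0.15 (edgeR adjusted p = 0.03), and this call ended without DMSO library 1 or 3, nutlin library 1 or 3, or GSK2830371 library 3, where values ran from 0.54 to 0.89, or with the compared groups alone at 0.78.

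*CEBPD* (chromosome 8, 48649475 to 48650726), an immediate C/EBP factor of acute-phase signals, also differed widely between the untreated lines, at 77.4 and 104 CPM in TPC1 and 6.55 and 6.08 CPM in K1. The log2 difference was −3.85 ± 0.20 (edgeR adjusted p = 3.7e-11), close to that of *NUPR1*. Nutlin raised it in TPC1 to 143 and 162 CPM, by 0.72 ± 0.20 (edgeR adjusted p = 0.014), a call lost without DMSO library 1 at 0.54 or nutlin library 3 at 0.63. Under both drugs it stood at 84.7 and 132 CPM in libraries 1 and 3. These overlapped the DMSO libraries as a group, though each lay above the DMSO library of its own number. In K1 it ran from 4.47 to 6.87 CPM over all 8 libraries, and the fall under both drugs of −0.42 ± 0.12 (edgeR adjusted p = 0.011) stayed under the fold threshold.

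*ATF5* and *BATF3* were raised in no comparison with DMSO or nutlin. *ATF5* (chromosome 19, 50431959 to 50437192) encodes a bZIP factor whose mRNA, like that of *ATF4*, is translated more when eIF2alpha is phosphorylated. In TPC1 it fell from 61.4 and 65.0 CPM under DMSO to 44.7 and 41.6 CPM under nutlin, by 0.59 on the log2 scale with a standard error of 0.08 (edgeR adjusted p = 0.00021). That call lay at the fold threshold and ended with DESeq2 size factors or DESeq2's Wald test at −0.58, without DMSO library 3 at −0.55 and without nutlin library 3 at −0.53. With both drugs *ATF5* was 50.7 and 51.2 CPM in TPC1, and in K1 it lay between 61.4 and 72.1 CPM in all 8 libraries. *BATF3* (chromosome 1, 212859759 to 212873182), a bZIP factor of the AP-1 family best known from dendritic cells, was read at 27 to 201 counts per library. In TPC1 it fell from 2.43 and 2.81 CPM under DMSO to 0.944 and 0.771 CPM under nutlin, by 1.68 with a standard error of 0.22 (edgeR adjusted p = 0.00018). Under both drugs it was 1.21 and 1.27 CPM in TPC1, with a change over DMSO of −1.11 ± 0.21 (edgeR adjusted p = 0.0013). In K1 the change with both drugs was −0.82 ± 0.30 (edgeR adjusted p = 0.04), which was lost without either library of DMSO or of both drugs, at values from −1.05 to −0.63, and also with library size alone, DESeq2's Wald test or the GC and length correction, at −0.83 to −0.79.

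**Figure D2:**
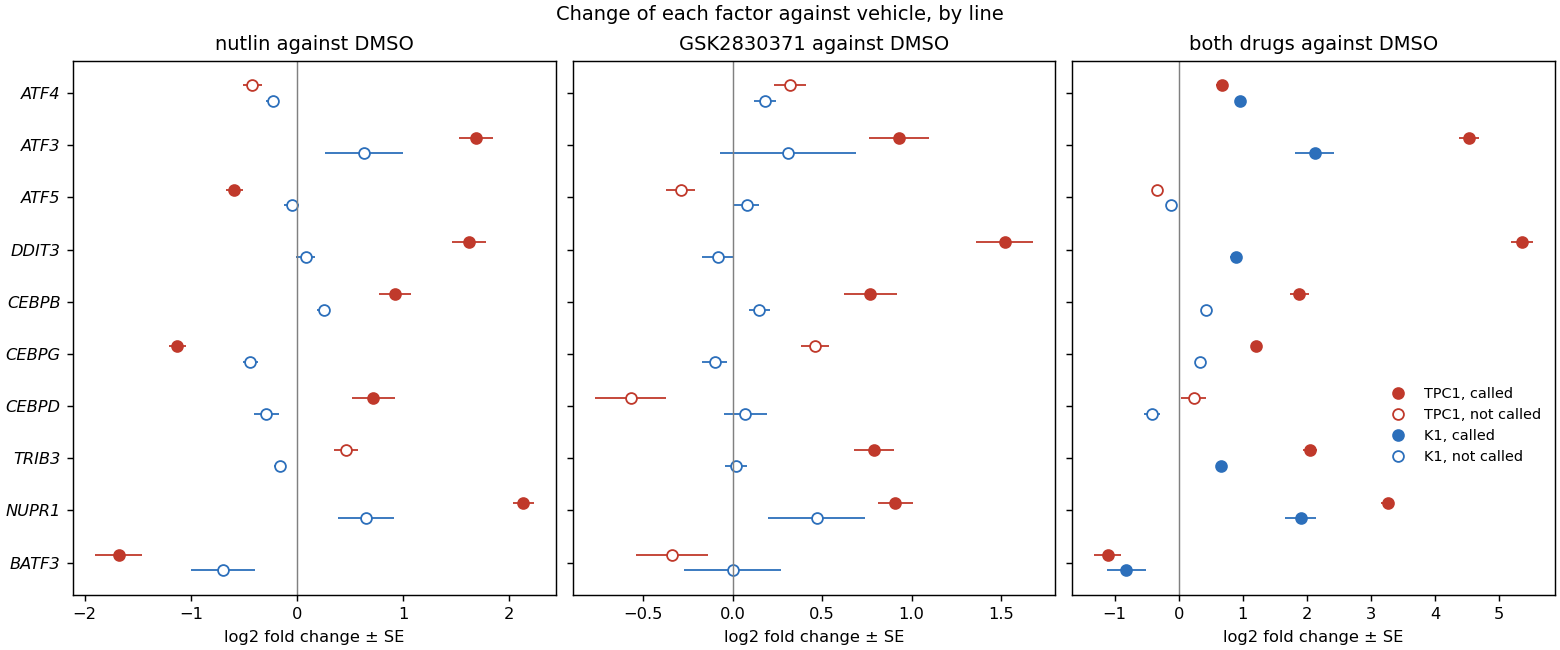
Log2 fold change over DMSO of the 10 genes under nutlin, GSK2830371 and both drugs, with bars for the standard error, red for TPC1 and blue for K1, filled where the change was called. Panels have separate horizontal scales. With each drug alone filled points occur in TPC1 and not in K1, and *ATF5* and *BATF3* lie at or left of 0 under both drugs.

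Counts over the 10 genes are given here beside those of all genes tested. Nutlin alone moved 8 of them in TPC1, 5 upward (*ATF3*, *DDIT3*, *CEBPB*, *CEBPD* and *NUPR1*) and 3 downward (*ATF5*, *CEBPG* and *BATF3*), where 35.5% of all genes tested were called, 17.5% upward and 18.0% downward. In K1 it moved 0 of the 10, against 9.27% of all genes. There 7 of the 10 had an unadjusted p under 0.05 by edgeR, and DESeq2 also called 0. The count became 1 (*NUPR1* or *BATF3*) without DMSO library 2, either nutlin library or either GSK2830371 library. GSK2830371 alone raised 5 in TPC1 (*ATF3*, *DDIT3*, *CEBPB*, *TRIB3* and *NUPR1*), where 0.72% of all genes were raised. Without DMSO library 1 or 3 or nutlin library 1 or 3 these became 3, and without GSK2830371 library 3 *DDIT3* was the gene left, while the share of all genes called went from 1.4% to 0.145% in the last case. In K1 it called 0 of the 10 against 2.23% of all genes, with 2 at an unadjusted p under 0.05 by edgeR and 0 by DESeq2. Both drugs against DMSO raised 7 genes and lowered 1 in TPC1, where 44.2% of all genes were called (22.5% upward, 21.7% downward). In K1 they raised 5 and lowered 1, where 15.7% were called (7.62% upward, 8.09% downward). The K1 counts of 0 for a single drug are near the shares of all genes and say nothing particular of the 10 genes, and over all genes too nutlin gave the smaller share of calls in K1. The 3 comparisons of a line share their DMSO libraries.

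The nutlin response itself differed between the lines for 6 genes, against 19.2% of all genes tested, 8.73% greater and 10.5% less in K1. *DDIT3*, *NUPR1*, *CEBPD*, *CEBPB* and *TRIB3* responded less in K1, by −1.57 ± 0.19, −1.51 ± 0.31, −1.04 ± 0.28, −0.70 ± 0.18 and −0.65 ± 0.13, with edgeR adjusted p from 1.1e-05 to 0.01. *CEBPG* fell less in K1, with a difference of 0.66 ± 0.11 (edgeR adjusted p = 0.00019). The calls of *CEBPB* and *TRIB3* ended without TPC1 DMSO library 1, at −0.58 and −0.57. That of *CEBPB* ended also without TPC1 nutlin library 3 at −0.55, and that of *TRIB3* without K1 nutlin library 2 or with the GC and length correction at −0.56, and at −0.57 with that correction and the replicate block. For GSK2830371 alone the lines differed in 2 genes, each lower in K1 relative to TPC1, against 1.58% of all genes in that direction. These were *DDIT3* at −1.59 ± 0.19 and *TRIB3* at −0.76 ± 0.13 (edgeR adjusted p = 0.0014 and 0.0081). With the replicate number as a block, *ATF3* at −1.11 and *BATF3* at 0.96 were added for nutlin, and *CEBPB* at −0.61 and *CEBPD* at 0.64 for GSK2830371. As these numbers do not pair DMSO with the other treatments in K1, the added calls are no firmer than the main ones.

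To see whether the drugs together did more than the sum of each alone, the interaction was tested on the log2 scale. It was called upward for 5 genes in TPC1, where 2.82% of all genes were, and for 4 in K1, where 1.79% were. *DDIT3*, *CEBPG*, *ATF4* and *TRIB3* passed in both lines. In TPC1 the excess over the sum was 2.21 ± 0.21 for *DDIT3*, 1.91 ± 0.22 for *ATF3*, 1.86 ± 0.11 for *CEBPG*, 0.80 ± 0.15 for *TRIB3* and 0.77 ± 0.13 for *ATF4*, with edgeR adjusted p from 0.00022 to 0.015. In K1 it was 1.00 ± 0.08 for *ATF4*, 0.90 ± 0.13 for *DDIT3*, 0.87 ± 0.09 for *CEBPG* and 0.79 ± 0.09 for *TRIB3*, with edgeR adjusted p from 0.00016 to 0.005. Not called there were *ATF3* at 1.18 and *NUPR1* at 0.77, which ran from 0.56 to 1.71 and from 0.35 to 1.19 over the alternatives.

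*ATF4* and *CEBPG* share a form of this excess, since both lay lower under nutlin and the single changes did not sum to a rise in either line. That sum was close to 0 for *ATF4*, at −0.11 in TPC1 and −0.05 in K1, and lower for *CEBPG*, at −0.67 and −0.54. *NUPR1* lay near the sum in TPC1, at 3.04 against 3.26 under both drugs, with an interaction of 0.22 ± 0.13 (edgeR adjusted p = 0.36). So did *CEBPB*, with 1.69 against 1.88 and 0.19 ± 0.20 (edgeR adjusted p = 0.63). An excess was not detected for these genes, but the standard errors are too large to show that there was none. The TPC1 calls of *ATF4* and *TRIB3* ended without nutlin library 1 or GSK2830371 library 1, at 0.72 to 0.81, and that of *TRIB3* also without nutlin or GSK2830371 library 3. That of *DDIT3* in K1 ended without nutlin library 2 at 0.91. With the replicate number as a block, *BATF3* also passed in TPC1, at 0.93 (edgeR adjusted p = 0.034).

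**Figure D3:**
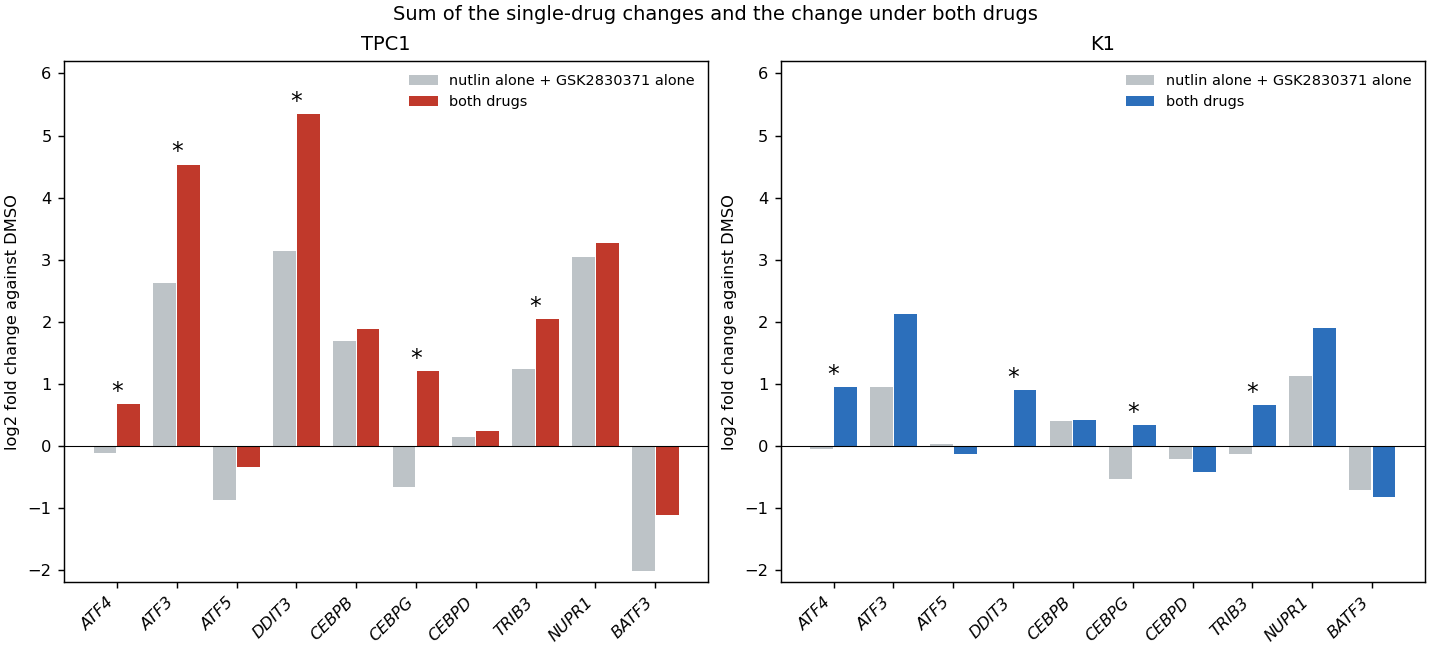
Bars give, for each gene, the sum of the log2 fold changes under nutlin alone and GSK2830371 alone (grey) and the log2 fold change under both drugs (red for TPC1, blue for K1), with stars where the interaction was called. The coloured bar of *DDIT3* reaches 5.35 against a grey bar of 3.14 in TPC1, and that of *NUPR1*, at 3.26, stays near its grey bar of 3.04.

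Between the lines, the step from nutlin to both drugs differed for 5 genes, each with the smaller rise in K1, against 2.56% of all genes in that direction. These were *DDIT3*, *CEBPG*, *ATF3*, *CEBPB* and *TRIB3*, with the values given above. Over DMSO, the response to both drugs differed for 6 genes, with *NUPR1* added at −1.38 ± 0.30 (edgeR adjusted p = 0.0015), against 13.8% of all genes in the same direction. Here *DDIT3* differed by −4.47 ± 0.18, *CEBPB* by −1.48 ± 0.18, *TRIB3* by −1.41 ± 0.13 and *CEBPG* by −0.90 ± 0.10, with edgeR adjusted p from 6.4e-11 to 5.9e-06. With the replicate block, whose numbers do not pair DMSO with the other treatments in K1, *CEBPD* was added, at −0.66. *ATF4* did not pass, at 0.25 ± 0.12 with a 95% interval from −0.01 to 0.51 (edgeR adjusted p = 0.12). Levels before treatment differed for 6 genes, against 46.2% of all genes (25.0% higher and 21.2% lower in K1). *DDIT3* and *CEBPB* were higher in K1 and *ATF4*, *CEBPD*, *NUPR1* and *ATF3* lower, the last at −0.87 ± 0.32 (edgeR adjusted p = 0.024) and lost without K1 DMSO library 1 at −0.45 or TPC1 DMSO library 3 at −0.86, and at −0.66 with the replicate block.

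**Figure D4:**
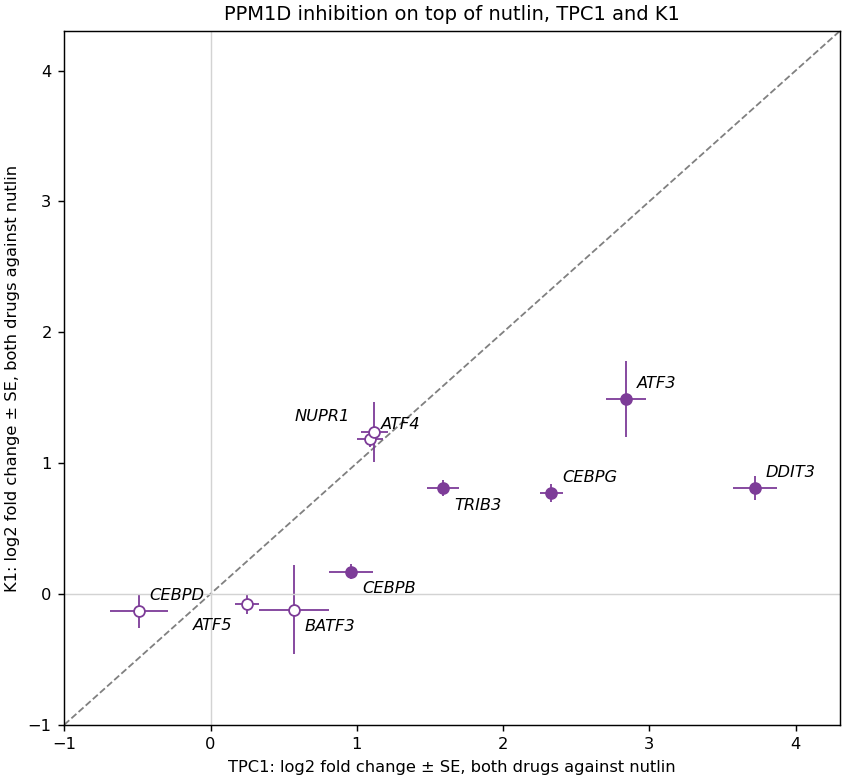
Log2 fold change from nutlin to both drugs in TPC1 (horizontal) and K1 (vertical), with 1 point per gene, standard errors as bars, points filled where the lines differed in the test, and a dashed line of equal change. *ATF4* and *NUPR1* lie at the line, and *DDIT3*, at 3.72 and 0.81, lies farthest below it.

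Genes that carry out or switch off the response were looked at beside the factors, as lists chosen with earlier results of these data known. Their counts are therefore a description and not independent support. Of 5 genes linked to CHOP, *PPP1R15A*, which encodes GADD34, the subunit that brings a phosphatase to eIF2alpha, rose from nutlin to both drugs in TPC1 from 65.1 ± 3.38 to 198 ± 47.3 CPM, by 1.61 ± 0.15 (edgeR adjusted p = 0.00017). In K1 it started at 147 ± 6.44 CPM in DMSO and went from 201 ± 4.93 to 254 ± 1.13 CPM in that step, by 0.34 ± 0.06, under the fold threshold. The difference of the responses was −1.26 ± 0.17 (edgeR adjusted p = 0.00032). *BCL2L11*, which encodes the death protein BIM, rose in both lines, from 9.85 ± 0.231 to 18.0 ± 0.486 CPM in TPC1, or 0.88 ± 0.09, while K1 went up by 1.10 ± 0.20 to 2.51 ± 0.17 CPM from 1.17 ± 0.0898 CPM under nutlin (edgeR adjusted p = 0.0002 and 0.0038). In K1 nutlin alone had lowered it from 2.9 ± 0.406 CPM under DMSO, by 1.31 with a standard error of 0.20 (edgeR adjusted p = 0.0002).

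*TNFRSF10B*, the gene of death receptor DR5, and *BBC3*, that of PUMA, are also p53 targets. Nutlin alone raised both genes in each line, with *TNFRSF10B* at 278 ± 1.1 and 717 ± 13.9 CPM before and after in TPC1, and at 127 ± 3.14 and 278 ± 6.5 CPM in K1. For *BBC3* the means were 8.13 ± 0.844 and 80.6 ± 0.883 CPM in TPC1, and 9.94 ± 0.899 and 43.7 ± 4.64 CPM in K1. The further step to both drugs was under the fold threshold, at 0.55 ± 0.08 and 0.35 ± 0.05 for *TNFRSF10B* and 0.45 ± 0.10 and 0.34 ± 0.08 for *BBC3*. *ERO1L*, an oxidase of the endoplasmic reticulum, was not raised in this step, with 67.9 ± 3.64 CPM under nutlin and 58.6 ± 0.784 CPM under both drugs in TPC1 and 86.8 ± 0.502 and 82.9 ± 0.91 CPM in K1. Against DMSO both drugs lowered it in TPC1, by 0.64 with a standard error of 0.08 (edgeR adjusted p = 0.00011). The list median in this step was 0.55 in TPC1 and 0.34 in K1.

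The eIF2alpha arm was listed as 7 genes, eIF2alpha itself (*EIF2S1*), its kinases *EIF2AK1* (HRI), *EIF2AK2* (PKR), *EIF2AK3* (PERK) and *EIF2AK4* (GCN2), and the phosphatase subunits *PPP1R15A*, already described, and *PPP1R15B*. From nutlin to both drugs *PPP1R15A* in TPC1 was the gene called, and the list had a median of 0.03 for TPC1 and 0.20 for K1. *EIF2AK1*, the kinase that senses heme, stood at 136 ± 4.1 CPM under nutlin and 124 ± 9.52 CPM under both drugs in TPC1. In K1 it was at 101 ± 3.32 and 117 ± 4.38 CPM, a change of 0.20 ± 0.06 under the fold threshold (edgeR adjusted p = 0.03). Under DMSO it had stood at 166 ± 15.7 CPM in TPC1 and 98.3 ± 3.54 CPM in K1. Over DMSO both drugs moved it by −0.45 ± 0.09 in TPC1 and 0.25 ± 0.06 in K1 (edgeR adjusted p = 0.0014 and 0.0027), again under that threshold. *EIF2AK3* rose in K1 over DMSO from 27.5 ± 2.28 to 44.1 ± 2 CPM under both drugs, by 0.68 ± 0.07 (edgeR adjusted p = 4.1e-06), and was 15.6 ± 0.779 and 17.0 ± 0.876 CPM in TPC1. *EIF2S1* fell in TPC1 under nutlin from 135 ± 5.74 to 69.4 ± 4.1 CPM, by 1.00 with a standard error of 0.09 (edgeR adjusted p = 1.5e-05), and stood at 71.6 ± 7.7 CPM with both drugs. *EIF2AK2* lay between 48.9 ± 6.32 and 61.1 ± 5.92 CPM over the TPC1 groups and between 71.3 ± 2.89 and 85.6 ± 1.68 CPM over those of K1. *EIF2AK4* was 147 ± 7.7 CPM under DMSO and 199 ± 3.79 CPM under both drugs in TPC1, and 148 ± 1.22 and 163 ± 3.86 CPM in K1. *PPP1R15B* went from 81.1 ± 1.1 CPM under nutlin to 114 ± 0.778 CPM under both drugs in TPC1, by 0.50 ± 0.09 (edgeR adjusted p = 0.0049), and from 95.7 ± 0.754 to 117 ± 3.79 CPM in K1.

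Of 49 other ATF4 targets tested, mostly genes of amino acid synthesis and transport and of tRNA charging, 33 rose from nutlin to both drugs in TPC1 and 22 in K1, where 6.46% and 1.16% of all genes rose, and the rest did not pass. Their median change was 0.93 on the log2 scale for TPC1 and 0.54 for K1. The largest rise in each line was that of *CHAC1*, which encodes a glutathione-degrading enzyme, at 5.00 ± 0.10 in TPC1, where the means were 10.2 and 326 CPM, and at 3.54 ± 0.15 in K1, where they were 5.98 and 69.1 CPM (edgeR adjusted p = 4.5e-08 and 5.2e-08). Next in TPC1 came the neutral amino acid transporter *SLC1A4* at 3.32 ± 0.11 and the secreted stanniocalcin *STC2* at 3.02 ± 0.08, and in K1 the peptide hormone gene *ADM2* at 2.08 ± 0.16 and the cytokine gene *GDF15* at 2.03 ± 0.22, with edgeR adjusted p from 4.1e-07 to 0.00011. The step differed between the lines for 15 of the 49 genes, with 14 of these rising less in K1, a direction called for 2.56% of all genes. With nutlin alone 16 of the 49 fell and 6 rose in TPC1, where 18.0% of all genes fell and 17.5% rose. In K1 7 fell and 2 rose, where 9.27% of all genes were called in either direction. *GDF15* was among the rises with nutlin alone in each line, by 3.83 ± 0.11 in TPC1 and 1.96 ± 0.35 in K1 (edgeR adjusted p = 1.5e-08 and 0.00081). Its level in K1 was low, with means of 1.33 CPM under nutlin and 5.47 CPM under both drugs. With GSK2830371 alone 13 rose in TPC1, where 0.72% of all genes did. The 1 that rose in K1 is near the share of 2.23% called among all genes there.

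Other bZIP factors gave a smaller count. From nutlin to both drugs 4 of 42 rose and 3 fell in TPC1, where 12.1% of all genes were called, and 1 of 40 rose in K1, where 2.68% were, with medians of 0.04 and 0.11. *JDP2*, a repressor of the AP-1 family, rose in both lines, by 1.34 ± 0.10 in TPC1 and 1.07 ± 0.13 in K1, where the means went up from 10.0 to 25.0 and from 9.57 to 20.0 CPM (edgeR adjusted p = 6.1e-05 and 0.00019). Nutlin alone had lowered *JDP2*, with changes of −1.66 ± 0.10 and −0.84 ± 0.13 (edgeR adjusted p = 1.2e-06 and 0.0002). In TPC1 *XBP1*, the factor of the unfolded protein response that IRE1 activates, rose by 1.53 ± 0.15 and *MAFF*, a small Maf protein gene, by 0.82 ± 0.10, while *HLF*, of the PAR bZIP family, fell by 1.31 with a standard error of 0.10 and *JUN*, the AP-1 subunit, by 0.72 with a standard error of 0.07 (edgeR adjusted p from 7.3e-05 to 0.00064).

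Finally, the genes whose profile over the 16 libraries lay nearest to that of each factor were listed, by the root mean square difference of log2(CPM + 0.5) after centring each line on its DMSO libraries, among 11621 genes. This is a description of likeness over points that share their DMSO libraries. Nearest to *ATF4* were *SLC31A1*, *GPR35* and *TXNRD1*, at 0.203 to 0.227. Nearest to *CEBPG* were *GTPBP2*, *MTHFD2* and *NCOA7*, at 0.215 to 0.225, of which *MTHFD2* encodes a mitochondrial folate enzyme on the list of ATF4 targets. For *TRIB3* they were *TSC22D3*, *RPS6KA2* and *FLJ46906*, at 0.203 to 0.219, and for *CEBPB* *SARS*, the gene of a tRNA synthetase, *HDAC5* and *DUSP5*, at 0.158 to 0.16.

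*DDIT3* lay farthest from its nearest genes, on a measure that grows with the size of a gene's changes. These were *ATF3*, *IL6* and *PCLO*, at 0.627 to 0.711. With a pseudocount of 0.1 none of them stayed among the 3 nearest, and *BEX2* came first at 0.485. *NUPR1* lay nearest to *FADS3*, *NR4A3* and *LOC100996255*, at 0.368 to 0.407, of which 1 stayed among the 3 nearest with a pseudocount of 2. For the factors besides *DDIT3* and *NUPR1* at least 2 of the 3 stayed with either pseudocount. *CEBPD* lay nearest to *ETS2*, *PDE7B* and *CRIP2*, at 0.187 to 0.223, and *ATF5*, which moved little, to *BLMH*, *WDR45B* and *THEM4*, at 0.072 to 0.0797. Among the factors themselves, *CEBPB* and *TRIB3* were nearest at 0.268. Next came *ATF4* and *CEBPG* at 0.404, *ATF5* and *BATF3* at 0.427 and *ATF3* and *NUPR1* at 0.439, whereas *DDIT3* and *BATF3* were farthest apart at 2.51.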

How the data were processed

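RNA-seq of 16 libraries was analysed. The authors deposited raw read counts per gene symbol. Per the labels and the methods of the study, reads were aligned to GRCh37 with TopHat2 2.0.13, those of low mapping quality were removed, duplicates were identified with Picard 1.129, and HTSeq 0.6.1 counted reads over exons by strand. Every sample column was used, and the TPC1 columns numbered 3 were assigned to a treatment only.

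Counts were fitted in edgeR 4.0.16 (limma 3.58.1, R 4.3.3) with TMM scaling and quasi-likelihood F tests, over 8 libraries per line (15273 genes in TPC1, 15900 in K1) and over 16 libraries (16738 genes) for differences between lines, keeping genes above 0.1 CPM in at least 2 libraries. P values were adjusted by Benjamini-Hochberg over all genes of a comparison. DESeq2 1.42.0 was an alternative. Tables and plots used Python 3.11.15 with pandas 2.3.3, numpy 2.4.6 and matplotlib 3.10.9. The steps were tested on simulated data.

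The members and lists were chosen with earlier results of these data known. Named besides the members are all genes of the eIF2alpha and CHOP lists, *CDKN1A* and *MDM2*, and, of the other ATF4 targets and bZIP factors, up to 3 called rises and 2 falls per line with both drugs against nutlin at 5 CPM or more in the higher group. Nearest profiles were listed for members reaching 5 CPM in both lines. Windows before gene starts were read from the GRCh37 genome with GENCODE starts, for 19852 protein-coding genes. For the GC and length correction, 23031 of 25369 symbols matched a GENCODE transcript. In TPC1, differences between libraries 1 and 3 correlated across treatments at 0.494 to 0.698 over genes, and depth followed the number as well (30789887 to 36896529 counts in libraries 1, 62853375 to 76648552 in libraries 3), so these numbers pair the libraries. In K1 the correlations were −0.359 to −0.289 for DMSO with another treatment and 0.146 to 0.379 among the other treatments. The K1 DMSO libraries thus differed by number in the direction opposite to the others, so the numbers do not pair them. The cause was not tested. The main tests compared group means in both lines and did not use the pairing of the TPC1 libraries, which entered only through the replicate block as an alternative. With a library left out, its group's remaining library was assumed to vary as the other groups do.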

Additional observations from a re-analysis of the deposited data

Results flagged for a closer look

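Responses that differed between the lines in the fit of all 16 libraries (edgeR, adjusted p under 0.05 and over 1.5-fold, K1 minus TPC1 on the log2 scale) are collected here. For nutlin alone these were *CEBPB* at −0.70, *CEBPD* at −1.04, *CEBPG* at 0.66, *DDIT3* at −1.57, *NUPR1* at −1.51 and *TRIB3* at −0.65. For GSK2830371 alone they were *DDIT3* at −1.59 and *TRIB3* at −0.76. For both drugs against DMSO they were *ATF3* at −2.43, *CEBPB* at −1.48, *CEBPG* at −0.90, *DDIT3* at −4.47, *NUPR1* at −1.38 and *TRIB3* at −1.41. For both drugs against nutlin they were *ATF3* at −1.34, *CEBPB* at −0.78, *CEBPG* at −1.55, *DDIT3* at −2.90 and *TRIB3* at −0.76. *DDIT3* and *TRIB3* appear in each of these 4 contrasts, which share libraries.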

How the results depend on the processing

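Of 74 called changes of a member in a comparison, 56 kept direction and call under every alternative, 18 lost the call under at least 1, and 0 turned round. The alternatives were DESeq2 size factors, library size alone, filterByExpr, no filter, DESeq2's Wald test, the compared groups alone, the replicate block, a correction for GC content and length, both of these together, and leaving out each library. The cause of a lost call was not tested.

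Counts of members called moved by over 1.5 times in these cases. For GSK2830371 against DMSO in TPC1 the 5 called became 3 with the compared groups alone and 1 to 5 when a library was left out, with 1 left without GSK2830371 library 3. For the interaction in TPC1 leaving out a library gave 3 to 5, with 3 without nutlin library 1 or GSK2830371 library 1. For nutlin in K1 the 0 called became 2 without a filter (*NUPR1* and *BATF3*), 1 with the replicate block alone or with the GC correction (*BATF3*), and 0 to 1 when a library was left out. The GSK2830371 response differed between lines for 4 genes in place of 2 with library size alone, without a filter and with the replicate block. The step from nutlin to both drugs differed for 3 to 5 genes when a library was left out, with 3 without TPC1 nutlin library 1 or K1 nutlin library 1. Uncalled differences that changed sign were that of *ATF3* in the GSK2830371 response, at −1.15 to 0.00 (0.00 without K1 DMSO library 2), and that of *NUPR1* in the step from nutlin, at −0.21 to 0.54 (−0.21 without K1 nutlin library 2).

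The share of all genes called was least stable for GSK2830371 alone and for the interaction. In TPC1 it was 3.14% and 10.3% with the replicate block, against 1.4% and 6.32%. In K1 the GC correction gave 0.836% and 0.528%, against 2.23% and 2.44%. Scaling by library size alone moved the split of all genes called by over 10 percentage points in 7 comparisons. The genes raised and lowered became 166 and 85 for GSK2830371 in TPC1 (from 110 and 104), 338 and 705 for the interaction in TPC1 (from 431 and 534), 228 and 196 for both drugs against nutlin in K1 (from 184 and 242), and 404 and 77 for the interaction in K1 (from 284 and 104). For the differences between lines they became 74 and 373 for GSK2830371 (from 100 and 265), 2562 and 1867 for both drugs against DMSO (from 1991 and 2316, with the median of all genes shifted by 0.11 on the log2 scale), and 556 and 356 for both drugs against nutlin (from 428 and 428). No call of a member changed direction under a scaling. The replicate block uses numbers that pair the libraries in TPC1 but, in K1, not those of DMSO with the other treatments. This block gave 6 members in place of 5 for the interaction in TPC1 and 8 in place of 6 for the nutlin response between lines. For both drugs against DMSO between lines it gave 7 in place of 6, and for the untreated lines 5 in place of 6. It moved no other call of a member besides those given above. With 2 libraries a group, *ATF3*, *BATF3*, *CEBPD* and *NUPR1* in K1 rest on few counts, with lowest values of 22, 27, 146 and 152 in a library.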
